A study of Mus musculus with 106 samples.

Results

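The genes described are those of the proteins of the mouse cytosolic ribosome, with the paralogs Rpl22 and Rpl22l1 reported apart. They are the protein-coding genes whose symbol starts with Rpl or Rps followed by a digit, or is Rplp0, Rplp1, Rplp2, Rpsa or Fau; the Rps6k kinases and symbols ending in a -ps number, the mark of pseudogene copies, were left out. The rule found 87 of the 21897 protein-coding genes in the deposited table, which holds 55401 mouse genes in all. Ribosomal proteins coat the RNA of the small subunit, which reads the mRNA, and of the large subunit, which joins amino acids, and the P-stalk of the large subunit recruits the elongation factors. Their mRNAs are short and abundant, and many start with a run of pyrimidines, the 5′ terminal oligopyrimidine (TOP) motif, through which the mTOR pathway controls their translation. Rpl22 is the protein that carries the tag in RiboTag mice, and Rpl22l1 is the paralog that can take its place in the ribosome.

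The study asked how gene expression differs between neuron classes of mice that carry a Huntington’s disease allele and their control littermates before symptoms. In RiboTag mice a Cre line switches on hemagglutinin (HA)-tagged Rpl22 in the cells that express Cre, and an antibody to HA then pulls ribosomes and their mRNA from a brain homogenate. These immunoprecipitated libraries (IP) were sequenced beside libraries of total RNA from homogenate (input), 67 IP and 39 input libraries from 45 mice. Mouse gene counts per library ran from 21905238 to 107753596, with a median of 35866734.

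Huntington’s disease mice (HD) were Hdh Q7/Q200 and controls Hdh Q7/Q7, all on a 129S4 background and about 9 months old, and all were heterozygous for a Cre allele and for the RiboTag allele, controls included. The Gad2 line drives Cre in GABAergic neurons, the PV line in parvalbumin neurons, the SST line in somatostatin neurons, and the vGluT2 line in glutamatergic neurons that express or have expressed Slc17a6. For each mouse a frozen hemisphere was used, split into the cerebrum without the olfactory bulb and the cerebellum, and the PV and SST lines gave cerebral libraries only. Control and HD mice gave, in this order, 6 and 6 IPs for cerebral Gad2, 6 and 5 for PV, 5 and 4 for SST, 6 and 6 for cerebral vGluT2, 6 and 6 for cerebellar Gad2, and 5 and 6 for cerebellar vGluT2. Inputs numbered 13 control and 12 HD for the cerebrum over the lines, and 7 and 7 for the cerebellum, where 3 and 3 came from the Gad2 line and 4 and 4 from the vGluT2 line. Each PV library pooled duplicate precipitations of the same homogenate, and 3 libraries, all HD, were sequenced again. In the SST line 3 of the 5 control IP mice had identifiers of another series than the HD mice, so identifier series and genotype are partly joined there. The table has no gene for the tag, and whether reads of the tagged allele were counted under Rpl22 or dropped is not known, which bears on every level, IP to input value and ratio of Rpl22 below.

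Levels are given as CPM, counts scaled to a common library size by the TMM method over all 106 libraries. Marker lists followed the labels of most IPs in the control mice. The summed GABAergic list (Gad1, Gad2, Slc32a1) reached 2254 to 3022 CPM in cerebral Gad2 IPs and 2381 to 3575 in cerebellar Gad2 IPs, against 50.6 to 119.6 in cerebral vGluT2 IPs. The granule cell list, led by Cbln1, reached 5648 to 8206 CPM in cerebellar vGluT2 IPs, and the Purkinje cell list, led by Itpr1, 15055 to 19281 in cerebellar Gad2 IPs. Within the cerebrum the PV list was highest in PV IPs (1591 to 2033 CPM), the SST list in SST IPs (1134 to 2019 CPM) and the striatal projection neuron list in Gad2 IPs (4025 to 5509 CPM).

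The labels held less well in some libraries. The vGluT2 list (Slc17a6, Tcf7l2, Lef1) reached 83.6 to 255 CPM in cerebral vGluT2 IPs, but also 96.8 to 165 in PV and 105 to 201 in SST IPs, so it does not set these IPs apart; inputs gave 63.6 to 93.9 in the cerebral vGluT2 line and 59.6 to 168 in the cerebral Gad2 line, and in cerebellar vGluT2 IPs it gave 23.4, 47.2, 23.4, 25.6 and 214. SST IPs also held astrocyte mRNA (1351 to 2540 CPM, against 188 to 735 in cerebral Gad2 IPs) and oligodendrocyte mRNA (2693 to 4620 against 430.5 to 1566 CPM). In PV IPs these lists reached 1121 to 1626 and 1557 to 2546 CPM. Control inputs held the astrocyte list at 1476 to 2259 CPM in the SST line and 1125 to 1906 in the PV line. Its ranges in IPs and inputs thus overlap in both lines. The oligodendrocyte list reached 4951 to 6050 and 5374 to 6990 CPM in the same inputs. HD replicate 3 of the PV IPs held the Purkinje list at 4296 CPM, where the other PV IPs of both genotypes held 578 to 1899. The endothelial list was led by Flt1 in the control IPs of each line, and no marker of any list was at 0 in a whole group.

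Of the 87 genes, 32 encode proteins of the small subunit, 42 of the large subunit and 3 the P-stalk (Rplp0, Rplp1, Rplp2), 7 are copies of other members, 2 are the Rpl22 pair, and Rps19bp1 encodes a protein that binds Rps19 and is not itself ribosomal. The copies are Rpl3l, known from heart and skeletal muscle, the testis genes Rpl10l and Rpl39l, and Rpl36al, Rpl7l1, Rps27l and Rps27rt. They lie on 20 chromosomes, with 14 of them on chromosome 7. Rpl10l had no count in any of the 106 libraries and Rpl39l had a mean count of 3.38, so both failed the minimum of a mean count above 10 and 85 members were tested; Rpl3l, with a mean count of 19.2, passed in all comparisons but those of the cerebellar vGluT2 IPs between genotypes and between regions, which held 84. Reads of processed pseudogenes limit what 6 members can show. Per 100 counts of the parent gene the table gives Rps3a2 63.7 and Rps3a3 63.9 for Rps3a1, Rpl34-ps1 53.1 for Rpl34, Rpl3-ps1 27.9 for Rpl3, Rps13-ps1 22.4 for Rps13, Rps2-ps10 14.3 for Rps2 and Rps4l 11.5 for Rps4x. Lower values were those of Rpl15-ps2 for Rpl15 (7.09) and Rps15a-ps7 for Rps15a (5.22).

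Levels of different members were compared per kilobase of the longest annotated transcript, as means over the 67 IPs. On this scale Rpl19, whose protein bridges the subunits, was highest at 474 ± 149.8 CPM per kilobase (SD, n = 67), followed by the stalk gene Rplp1 at 442 ± 159.9. Rps15, Rpl4 and Rps29 came next at 325 ± 113, 300 ± 66.2 and 293 ± 129.5 CPM per kilobase. Neighbours in this order differ by less than the larger of their SDs. Lowest of the 85 members tested were Rpl3l at 0.390 ± 0.260, Rps27rt at 2.52 ± 2.13 and Rps27l at 17.1 ± 7.02 CPM per kilobase, each a copy of a member with a higher level. Rps20 (20.6 CPM per kilobase) and Rps15a (20.6) stood low on this scale through a long annotated transcript: per kilobase of the median transcript they reached 131 and 168.

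Ribosomal protein mRNA made up a smaller part of the ribosome-bound RNA than of total RNA. Summed over the 87 genes, the share of mouse gene counts was 1.28% ± 0.375 (SD, n = 67) in the IPs and 2.47% ± 0.612 (SD, n = 39) in the inputs. Libraries ran from 0.655% to 2.75% in the IPs and from 1.62% to 4.21% in the inputs, so the ranges overlap. By cell type, with both genotypes together, PV IPs were lowest at 0.946% ± 0.159 (SD, n = 11), then cerebellar Gad2 at 1.16% ± 0.289 (SD, n = 12), cerebellar vGluT2 at 1.31% ± 0.299 (SD, n = 11), SST at 1.34% ± 0.645 (SD, n = 9), cerebral vGluT2 at 1.41% ± 0.298 (SD, n = 12) and cerebral Gad2 at 1.51% ± 0.245 (SD, n = 12). Neighbours in this order differ by less than the larger of their SDs, and SST IPs vary most.

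The same mouse often gave both preparations, which allows a ratio of IP share to input share within a mouse. The median ratio was 0.337 in 6 PV mice (0.246 to 0.428), 0.379 in 6 SST mice (0.245 to 0.830) and 0.464 in 6 mice for cerebellar Gad2 (0.359 to 0.557). It was 0.509 in 7 mice for cerebellar vGluT2 (0.309 to 0.648), 0.536 in 6 for cerebral vGluT2 (0.419 to 0.861) and 0.653 in 6 for cerebral Gad2 (0.505 to 1.05). The IP share was the lower of the pair in every mouse of these groups except in cerebral Gad2, where it was lower in 4 of 6. Mitochondrially encoded mRNA, which cytosolic ribosomes do not translate, made up 5.42% ± 2.26 (SD, n = 39) of input counts and 0.335% ± 0.494 (SD, n = 67) of IP counts, with 1.09% ± 0.962 (SD, n = 9) in SST IPs. Taken over nuclear protein-coding counts alone, the ribosomal protein share was 1.33% ± 0.391 (SD, n = 67) in IPs and 2.79% ± 0.677 (SD, n = 39) in inputs.

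**Figure D1:**
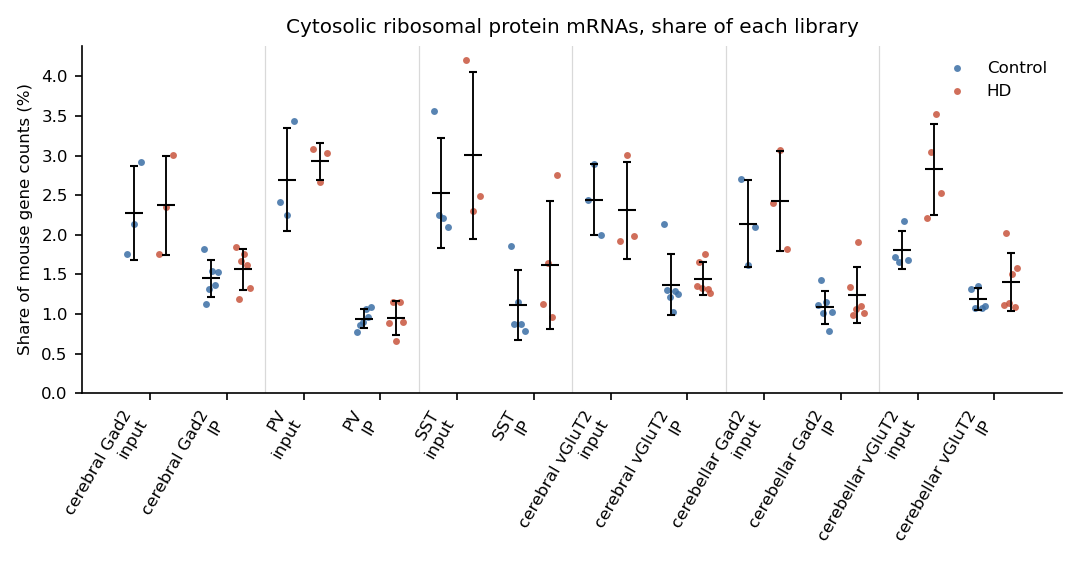
Share of mouse gene counts held by the 87 ribosomal protein genes (percent, vertical axis) in each library, by cell type, preparation and genotype; points are libraries, bars the mean ± SD. IP libraries average 1.28% and inputs 2.47%, and the HD inputs of the cerebellar vGluT2 line lie at 2.22% to 3.52%, above its control inputs at 1.66% to 2.17%.

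Each cell type’s IPs were tested against all inputs of the same region, with genotype in the model, by the quasi-likelihood F test of edgeR, and p was adjusted over all protein-coding genes tested (Benjamini-Hochberg); a gene was called at an adjusted p of at most 0.05. In each of the 6 cell types most ribosomal protein mRNAs were lower in the IP than in total RNA, in the small subunit, the large subunit and the stalk alike. Since inputs hold every cell of the tissue, fewer cells of a type and less RNA per cell cannot be told apart in these bulk samples, nor can a lower level in the cell type and a lower share on ribosomes. The 4 cerebral comparisons share their inputs, as do the 2 cerebellar ones, and many mice gave both preparations. PV and SST IPs held astrocyte mRNA at levels that overlap with those of inputs, and its part in their values was not tested.

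In cerebral Gad2 neurons the test called 5 of 85 members higher (all genes 34.5%) and 73 lower (all genes 33.5%), with a median log2 fold change of −0.84 over the members against +0.04 over all genes. With mouse as a replicate block and only mice with both preparations, 48 members were called, 4 higher and 44 lower. The shares of all genes above belong to the fit without the block, and those of the blocked fit are not given. PV neurons had 1 of 85 members higher (all genes 37.3%) and 81 lower (all genes 38.9%), with a median of −1.68. For SST neurons the counts were 1 of 85 members higher (all genes 33.9%) and 76 lower (all genes 35.7%), with a median of −1.20. With library totals in place of TMM scaling the median of all genes in the SST comparison moved by over 0.1, to +0.12, and the share of calls that were higher went from 48.7% to 58.97%, while the members’ median was −1.06.

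Cerebral vGluT2 neurons had 4 of 85 members higher (all genes 34.8%) and 73 lower (all genes 33.6%), with a median of −0.94. In the cerebellum, Gad2 neurons had 3 of 85 members higher (all genes 34.7%) and 73 lower (all genes 32.6%), with a median of −0.93, and vGluT2 neurons 2 of 85 members higher (all genes 32.3%) and 77 lower (all genes 35.9%), with a median of −0.88. By role, the 32 small-subunit genes were called lower in numbers of 31 or 32 in each comparison and the 3 stalk genes in all, while of the 42 large-subunit genes 35 to 41 were lower. Length moved with the result in PV and SST: genes outside the list with transcripts under 1 kb had median log2 fold changes of −0.71 and −0.73, and those of 4 kb or more +0.32 and +0.37. In cerebral Gad2 the same short genes had a median of −0.01, in cerebral vGluT2 −0.06, in cerebellar Gad2 +0.01 and in cerebellar vGluT2 −0.21. The part of transcript length in the members’ values was not tested.

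Rps27, Rps12 and Rps21, proteins of the small subunit, had some of the lowest fold changes. Rps27 ranged from 23.5 to 70.3 CPM (median 40.7) in PV IPs and from 165 to 803 CPM (median 314) in cerebral inputs, and the ranges do not meet. In PV the fall of Rps27 was a log2 fold difference of −2.91 ± 0.23 (SE; adjusted p = 5.6e-14), and the log2 fold change was −1.88 in cerebral Gad2, −2.03 in cerebral vGluT2, −1.97 in cerebellar Gad2 and −1.85 in cerebellar vGluT2. Rps27rt, a retrogene copy of Rps27, was lower still in PV at −3.00, at a mean level of 0.467 CPM in the IPs and 3.99 CPM in the inputs. Rps12, on the beak of the small subunit, spanned 52.0 to 143 CPM (median 80.7) in cerebral Gad2 IPs and 193 to 562 CPM (median 278) in the inputs. No cerebral Gad2 IP reached the lowest input. There the test gave a log2 fold difference of −1.84 ± 0.16 (SE; adjusted p = 5.1e-13), and log2 fold changes in the cerebellum were −1.97 (Gad2) and −2.11 (vGluT2).

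In SST the lowest 3 were Rpl39, which lines the peptide exit tunnel, at −2.02 ± 0.21 (SE), and the small-subunit genes Rps29 at −1.95 ± 0.25 and Rps21 at −1.93 ± 0.22. Rpl39 gave 28.2 to 78.2 CPM (median 40.9) in SST IPs and 103 to 345 CPM (median 187) in inputs. The highest SST IP stayed under the lowest input. Rps14, near the mRNA exit, was among the lowest 3 in cerebral Gad2 (−1.63 ± 0.17), and Rps21 in PV (−2.71 ± 0.17). In the stalk the fold changes differed between genes. Rplp1 had log2 fold changes of −2.38 (PV), −1.78 (SST), −1.75 (cerebral vGluT2), −1.55 (cerebral Gad2), −1.37 (cerebellar Gad2) and −1.55 (cerebellar vGluT2). Rplp0, which anchors the stalk, ran from −1.27 in SST to −0.64 in cerebellar vGluT2, and Rplp2 from −1.73 in PV to −0.65 in cerebellar vGluT2, each called in the 6 comparisons.

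A few members went the other way. Rpl7, on the outer face of the large subunit, gave 227 to 362 CPM (median 298) in cerebral Gad2 IPs and 102 to 318 CPM (median 173) in cerebral inputs. The ranges overlap. It was called higher in cerebral Gad2 (log2 fold change +0.66 ± 0.13 (SE), adjusted p = 1.9e-05), cerebral vGluT2 (+0.60), SST (+0.39, adjusted p = 0.0308) and cerebellar vGluT2 (+0.33). Rpl36al, an autosomal copy of the X-linked Rpl36a, was higher in cerebral Gad2 (+0.65), cerebral vGluT2 (+0.66) and cerebellar Gad2 (+0.29, adjusted p = 0.0425). Rpl7l1, related to Rpl7, was higher in cerebral Gad2 (+0.39), cerebral vGluT2 (+0.29) and cerebellar vGluT2 (+0.43 ± 0.08). Rpl3l was higher in PV (+1.06), cerebral Gad2 (+0.65) and cerebellar Gad2 (+0.81), at mean levels of only 0.864 CPM in PV IPs and 0.444 CPM in cerebral inputs and of 0.654 CPM in cerebellar Gad2 IPs and 0.371 CPM in cerebellar inputs. It was called lower than in inputs in cerebellar vGluT2 IPs, which averaged 0.155 CPM of Rpl3l and did not reach the minimum count alone. Rps19bp1, the binding protein of Rps19, was higher in cerebral Gad2 (+0.42), cerebral vGluT2 (+0.38) and cerebellar Gad2 (+0.43) and lower in PV (−0.42) and SST (−0.39). Among the smallest falls that passed were those of Rpl5, which carries the 5S RNA, at −0.29 in PV, Rpl4, of the exit tunnel wall, at −0.29 in PV, Rpl3, near the catalytic centre, at −0.44 in SST, and Rpl7a at −0.26 in cerebellar vGluT2.

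Levels of the members differed between cell types, most of all in PV neurons. The IPs of each type were compared with Gad2 IPs of the same region, with genotype in the model; the 3 cerebral comparisons share the Gad2 IPs. In PV IPs the test called 0 of 85 members higher (all genes 33.1%) and 82 lower (all genes 34.6%), with a median log2 fold change of −0.83 over the members. Rps21, on the back of the small subunit, gave 32.9 to 80.4 CPM (median 51.0) in PV IPs and 64.9 to 179.7 CPM (median 138) in cerebral Gad2 IPs. The groups overlap. The test gave Rps21 a log2 fold difference of −1.27 ± 0.17 (SE; adjusted p = 4.2e-07). Rps27rt (−1.56) and Rpl41, the smallest protein of the large subunit (−1.18), were the other lowest members, and Rpl22 (−0.26), Rpsa (−0.27) and Rps3a1 (−0.41) lay nearest 0 among those called. Short genes were lower here too: genes outside the list under 1 kb had a median of −0.67 and those of 4 kb or more +0.29. The astrocyte and oligodendrocyte lists had higher means in PV than in Gad2 IPs of control mice (1336 against 477 and 2075 against 909.6 CPM), and the mitochondrially encoded share was 0.585% ± 0.219 (SD, n = 11) against 0.165% ± 0.128 (SD, n = 12); the part of length, of these lists and of this share was not tested. With library totals the median of all genes moved to +0.10, and 80 members were called, all lower. Of 14626 genes library totals called 5608 higher and 4329 lower.

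For SST IPs the test called 1 of 85 members higher (all genes 31.7%) and 37 lower (all genes 31.1%), with a median of −0.43. The large-subunit gene Rpl27 gave 52.1 to 164 CPM (median 83.7) in SST IPs and 126 to 254 CPM (median 201) in cerebral Gad2 IPs. The groups overlap. It had the lowest value (log2 fold change −1.001 ± 0.15 (SE), adjusted p = 5.6e-06), before Rps19bp1 (−0.87) and the stalk gene Rplp2 (−0.86); the called members nearest 0 were Rps7 (−0.43) and Rplp0 (−0.41). Rpl5 was the member called higher, at +0.47 ± 0.19 (SE), adjusted p = 0.0306. Leaving out HD replicate 4 of the SST IPs, the library with the highest ribosomal protein share of the group (2.75%), raised the members called from 38 to 65. The shares of all genes without this library are not given, so the rise cannot be read against all genes. With library totals the median of all genes moved by over 0.1, to +0.17, the share of calls that were higher went from 50.5% to 61.7%, and 1 member was called higher and 28 lower. Of 14566 genes library totals called 5728 higher and 3555 lower. Genes outside the list under 1 kb had a median of −0.77, and the glial lists were high in SST IPs, as given above; their part in the members’ values was not tested.

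Cerebral vGluT2 and Gad2 IPs differed little in these genes: 0 of 85 members higher (all genes 21.0%) and 2 lower (all genes 20.5%), with a median of −0.03. The lower ones were Rpl3l (−0.99 ± 0.39, adjusted p = 0.0424) and Rps9, a small-subunit protein near the mRNA entry (−0.26 ± 0.10, adjusted p = 0.0371). Rps9 gave 158 to 305 CPM (median 197) in vGluT2 and 190.2 to 337 CPM (median 260.4) in Gad2 IPs. The groups overlap. Leaving out 1 library changed this count: it was 5 without control vGluT2 replicate 1, 4 without HD Gad2 replicate 4, 1 without control vGluT2 replicate 3, control vGluT2 replicate 5, control Gad2 replicate 5, control Gad2 replicate 6, control Gad2 replicate 1, HD Gad2 replicate 1, HD Gad2 replicate 5 or HD Gad2 replicate 6, and 0 without control vGluT2 replicate 6, HD vGluT2 replicate 5, control Gad2 replicate 4 or HD Gad2 replicate 3. DESeq2 called 1 higher and 2 lower, library totals 4 in all, and the control mice alone 0. Of 14477 genes DESeq2 called 3003 higher and 3285 lower, and library totals 2234 and 3787. Shares of all genes are not given for the fits without 1 library or with control mice alone. Library totals changed the share of all calls that were higher from 50.6% to 37.1%.

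In the cerebellum vGluT2 IPs, rich in granule cell mRNA, were higher than Gad2 IPs, rich in Purkinje cell mRNA, in part of the members: 14 of 85 members higher (all genes 34.7%) and 2 lower (all genes 34.6%), with a median of +0.16. The share of members called higher lies below that of all genes. Rps15a, which binds the RNA of the small subunit, gave 127 to 207 CPM (median 146) in vGluT2 and 76.7 to 113 CPM (median 84.9) in Gad2 IPs. The groups do not overlap. It had the largest rise (log2 fold change +0.74 ± 0.09 (SE), adjusted p = 6.1e-08), before Rps27l (+0.55) and the large-subunit gene Rpl24 (+0.52), and Rpl5 (+0.20) was called with the smallest. Lower were Rpl22 (−0.50 ± 0.11) and Rpl3l, which averaged 0.155 CPM in vGluT2 and 0.654 CPM in Gad2 IPs; in the vGluT2 IPs alone Rpl3l did not reach the minimum count, so it was tested here through its counts in Gad2 IPs and no size is given. Without HD replicate 4 of the cerebellar Gad2 IPs 41 members were called in place of 16, without a filter on low counts 25, and in the control mice alone 10. Shares of all genes are not given for these fits.

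The cerebellar and the cerebral IPs of a line came mostly from the same mice. Cerebellar Gad2 IPs had lower levels than cerebral Gad2 IPs in many members: 1 of 85 members higher (all genes 34.4%) and 51 lower (all genes 31.2%), with a median of −0.33. Rpl10, which takes part in joining the subunits, gave 105 to 184 CPM (median 139) in cerebellar and 168 to 344 CPM (median 259) in cerebral Gad2 IPs. The groups overlap. Rpl10 had a log2 fold difference of −0.86 ± 0.10 (SE; adjusted p = 4.2e-08); Rps27rt (−0.92) and Rpl41 (−0.76) were the other lowest, and Rps3 (−0.29) and Rpsa (−0.25) nearest 0 among those called lower. The member that was higher was Rpl22. For vGluT2 IPs the test called 7 of 84 members higher (all genes 36.5%) and 24 lower (all genes 36.1%), with a median of −0.19. Rpl41 (−0.92), Rps19bp1 (−0.61) and Rpl35, at the tunnel exit (−0.60), were lowest, and Rpl18 (+0.47), Rpl7l1 (+0.43) and Rps27l (+0.42) highest. Genes outside the list under 1 kb and of 4 kb or more had medians of −0.26 and +0.22 between the regions in vGluT2 IPs and of −0.15 and +0.21 in Gad2 IPs, and the part of length in the members’ values was not tested.

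Total RNA of the regions differed less, in the Gad2 and vGluT2 lines together: 4 of 85 members higher (all genes 24.5%) and 5 lower (all genes 30.2%), with a median of −0.04. Rps2, near the mRNA entry, gave 152 to 470.2 CPM (median 295) in cerebellar inputs; its log2 fold change was −0.72 ± 0.15, and pseudogene reads limit it. Rpl41 (−0.63) and Rpl12, at the base of the stalk (−0.37), were also lower. Rpl7 (+0.55), Rpl30 (+0.28) and Rpl7l1 (+0.27) were higher in the cerebellum. Rpl41 was thus called lower in cerebellar Gad2 IPs, vGluT2 IPs and total RNA, which share mice. In the control mice alone 22 members were called in total RNA in place of 9. The share of all genes in that fit is not given.

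Rpl22 and Rpl22l1 were expressed at like levels. Rpl22 averaged 55.0 CPM in PV IPs, 61.9 in SST, 68.0 in cerebral Gad2, 75.6 in cerebral vGluT2, 94.0 in cerebellar Gad2 IPs and 68.0 in those of cerebellar vGluT2, against 102 ± 24.5 CPM (SD, n = 25) in cerebral and 101 ± 27.0 CPM (SD, n = 14) in cerebellar inputs. Rpl22l1 averaged 44.7, 60.4, 102, 91.5, 67.7 and 69.9 CPM in the same order, against 104 ± 29.4 CPM (SD, n = 25) and 86.7 ± 32.5 CPM (SD, n = 14). Per kilobase of the longest transcript the means over the IPs were 34.6 CPM for Rpl22 and 38.6 for Rpl22l1, and per kilobase of the median transcript 123 and 133.

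The count of Rpl22l1 per count of Rpl22 was 1.05 ± 0.383 (SD, n = 67) over the IPs and 0.977 ± 0.265 (SD, n = 39) over the inputs. It was highest in cerebral Gad2 IPs at 1.49 ± 0.483 (SD, n = 12) and lowest in cerebellar Gad2 IPs at 0.729 ± 0.166 (SD, n = 12), with ranges of 0.885 to 2.49 and 0.495 to 0.905. Those ranges meet only at their edge. Between them lay cerebral vGluT2 at 1.23, cerebellar vGluT2 at 1.03, SST at 1.002 and PV at 0.812, whose SDs overlap with those of their neighbours. Control and HD means of the ratio were 1.60 and 1.38 in cerebral Gad2 IPs and 1.17 and 0.921 in cerebellar vGluT2 IPs, and the ranges of the genotypes overlap in both.

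**Figure D2:**
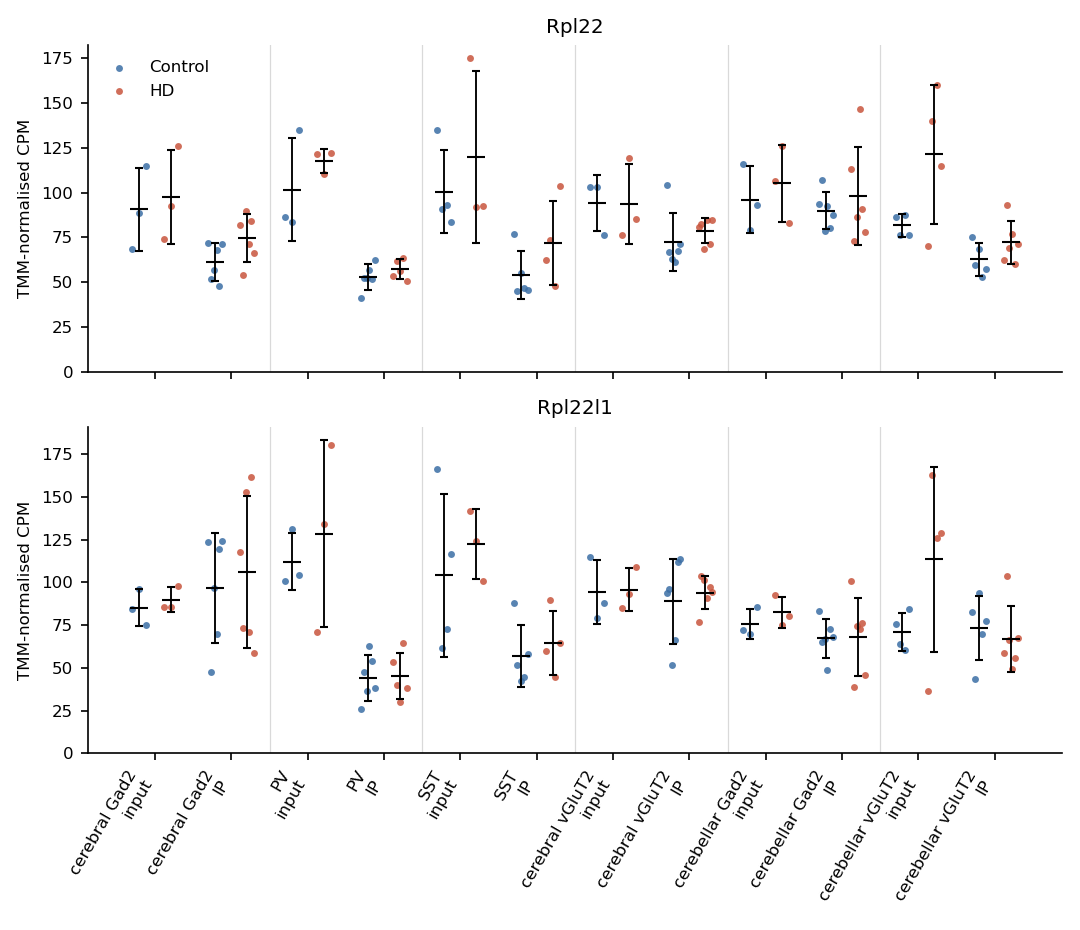
Levels in CPM (TMM scale) of Rpl22 and Rpl22l1 (vertical axes) in each library, by cell type, preparation and genotype; points are libraries, bars the mean ± SD. Rpl22l1 averages 44.7 CPM in PV IPs and 102 CPM in cerebral Gad2 IPs.

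Rpl22 mRNA itself, the template of the tagged protein, was lower in IPs than in inputs in 5 cell types. Its log2 fold change was −0.78 ± 0.09, adjusted p = 2.9e-09 in PV, −0.67 ± 0.10, adjusted p = 2.1e-06 in cerebellar vGluT2, −0.60 ± 0.10, adjusted p = 1.9e-06 in cerebral Gad2, −0.60 ± 0.12, adjusted p = 5.6e-05 in SST and −0.47 ± 0.09, adjusted p = 1.1e-05 in cerebral vGluT2. In cerebellar Gad2 neurons it was −0.10 ± 0.12, adjusted p = 0.488, which did not pass. Cerebellar Gad2 IPs had 73.2 to 146 CPM (median 89.4) of Rpl22, cerebral Gad2 IPs 48.0 to 89.8 CPM (median 69.7) and cerebellar vGluT2 IPs 53.0 to 93.1 CPM (median 68.9). The cerebellar Gad2 libraries overlap with both other groups. The region difference in Gad2 IPs was +0.49 ± 0.10, adjusted p = 1.7e-04, and the difference between cerebellar vGluT2 and Gad2 IPs −0.50 ± 0.11, adjusted p = 2.1e-04.

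Rpl22l1 was lower in IPs than in inputs in PV at −1.12 ± 0.15, adjusted p = 4.2e-08, in SST at −0.67 ± 0.16, adjusted p = 4.2e-04 and in cerebellar vGluT2 at −0.39 ± 0.17, adjusted p = 0.0455. The other values were −0.05 ± 0.16, adjusted p = 0.772 in cerebral Gad2, −0.23 ± 0.13, adjusted p = 0.110 in cerebral vGluT2 and −0.34 ± 0.17, adjusted p = 0.0779 in cerebellar Gad2, which did not pass. Against cerebral Gad2 IPs it was lower in PV (−1.14 ± 0.20, adjusted p = 1.8e-05) and in SST (−0.67 ± 0.20, adjusted p = 0.00615). PV IPs gave 25.7 to 64.6 CPM (median 39.9) and cerebral Gad2 IPs 47.5 to 162 CPM (median 107.5). The groups overlap. In the cerebellum it was lower than in the cerebrum in Gad2 IPs (−0.56 ± 0.18, adjusted p = 0.00754) and in vGluT2 IPs (−0.42 ± 0.14, adjusted p = 0.00902), so in Gad2 neurons the paralogs differed between regions in opposite directions.

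The HD effect was tested within each cell type’s IPs. Counts of members with an unadjusted p under 0.05 are given below without the share of all genes at that threshold. They can therefore not be read against all genes. In none of the 6 cell types did a ribosomal protein gene pass the test, by edgeR or by DESeq2, while the medians over the members all lay above 0. As a check of genotype, Htt, the gene with the expanded allele, had log2 fold changes of −0.32 in cerebellar vGluT2, −0.58 in cerebellar Gad2, −0.63 in cerebral vGluT2, −0.47 in cerebral Gad2, −0.57 in SST and −0.42 in PV IPs, called in cerebral vGluT2 (adjusted p = 0.0380).

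In cerebral Gad2 IPs the summed share was 1.12% (lowest), 1.45% (median) and 1.82% (highest) in control and 1.18% (lowest), 1.65% (median) and 1.85% (highest) in HD libraries, and the genotypes overlap. Here 0 of 85 members were called (all genes 0.0279%), 0 had an unadjusted p under 0.05, and DESeq2 called 0, with a median log2 fold change of +0.10 over the members and −0.01 over all genes. Rpl7l1 gave 42.2 (lowest), 57.3 (median) and 67.3 (highest) CPM in control and 55.7 (lowest), 67.5 (median) and 75.4 (highest) CPM in HD libraries. 5 of 6 HD libraries lay above the control median. This member had the lowest p (log2 fold change +0.21 ± 0.11 (SE), adjusted p = 0.536). The striatal projection neuron markers summed to 4025 to 5509 CPM in control and 2170 to 4038 in HD libraries of cerebral Gad2 IPs. Microglia markers summed to 102.3 to 221.5 and 113.2 to 422.1 CPM, and astrocyte markers to 188.2 to 734.7 and 155.1 to 407.6. Genes outside the list under 1 kb had a median of +0.06 and those of 4 kb or more −0.11. The part of these in the members’ median was not tested. PV IPs had a summed share of 0.773% (lowest), 0.932% (median) and 1.09% (highest) in control and of 0.890%, 1.16%, 0.655%, 1.16% and 0.898% in HD libraries, and the genotypes overlap. In PV 0 of 85 members were called (all genes 0.0408%), 0 had an unadjusted p under 0.05, and DESeq2 called 0; the median was +0.03. Rpl29 gave 10.8 (lowest), 12.8 (median) and 17.5 (highest) CPM in control and 12.4, 23.9, 11.2, 15.4 and 26.1 CPM in HD libraries. This large-subunit gene had the lowest p, 3 of 5 HD libraries lay above the control median, and the groups overlap. The test gave Rpl29 a log2 fold difference of +0.39 ± 0.21 (SE; adjusted p = 0.9999).

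SST IPs had the largest median, +0.58, with all 85 members above 0, and no gene of any kind passed. The summed share was 1.86%, 0.872%, 1.16%, 0.878% and 0.783% in the 5 control and 1.12%, 1.64%, 0.958% and 2.75% in the 4 HD libraries. HD replicate 4 was the highest library, control replicate 1 was the highest control, and the genotypes overlap. In SST 0 of 85 members were called (all genes 0%), 2 had an unadjusted p under 0.05, and DESeq2 called 0. The unadjusted count rests on single libraries: it was 68 without control replicate 1, 58 without HD replicate 3, 13 without HD replicate 1, 1 without control replicate 3 and 0 without any other library or without the 3 control mice of the other identifier series, with 0 members called in each case. Rps3a1 gave 126, 56.1, 100, 67.2 and 66.7 CPM in control and 98.5, 137, 66.1 and 252 CPM in HD libraries. 3 of 4 HD libraries lay above the control median. This small-subunit gene, whose counts pseudogenes share, had the lowest p (log2 fold change +0.73 ± 0.33 (SE), adjusted p = 0.9996). Genes outside the list under 1 kb had a median of +0.22 and those of 4 kb or more −0.05; the mitochondrially encoded share was 0.817% ± 0.564 (SD, n = 5) in control and 1.44% ± 1.32 (SD, n = 4) in HD IPs, and the part of either in the members’ values was not tested.

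For cerebral vGluT2 IPs the summed share was 1.02% (lowest), 1.27% (median) and 2.13% (highest) in control and 1.27% (lowest), 1.34% (median) and 1.76% (highest) in HD libraries, and the genotypes overlap. Here 0 of 85 members were called (all genes 0.00697%), 0 had an unadjusted p under 0.05, and DESeq2 called 0, and the median was +0.10. Rpl7l1 gave 48.6 (lowest), 54.6 (median) and 61.7 (highest) CPM in control and 55.8 (lowest), 60.4 (median) and 73.9 (highest) CPM in HD libraries. All 6 HD libraries lay above the control median, and the groups overlap. Rpl7l1 had the lowest p of the members here (log2 fold change +0.19 ± 0.09 (SE), adjusted p = 0.680). Genes outside the list under 1 kb had a median of +0.17, above that of the members, and those of 4 kb or more −0.10; the striatal projection neuron markers (5 genes) summed to 283 to 438 CPM in control and 206 to 259 in HD IPs, and the part of either was not tested. Cerebellar Gad2 IPs had 0.782% (lowest), 1.06% (median) and 1.43% (highest) in control and 0.982% (lowest), 1.08% (median) and 1.91% (highest) in HD libraries, which overlap. There 0 of 85 members were called (all genes 0.0142%), 0 had an unadjusted p under 0.05, and DESeq2 called 0, and the median was +0.12. Rpl29 gave 16.7 (lowest), 19.9 (median) and 28.6 (highest) CPM in control and 16.4 (lowest), 23.6 (median) and 47.3 (highest) CPM in HD libraries. Here 3 of 6 HD libraries lay above the control median. Rpl29 had the lowest p (log2 fold change +0.35 ± 0.23 (SE), adjusted p = 0.9999).

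Cerebellar vGluT2 IPs, where the genotypes differed most among the IPs over all genes, had a summed share of 1.32%, 1.07%, 1.36%, 1.08% and 1.11% in the 5 control and 1.09% (lowest), 1.32% (median) and 2.03% (highest) in the 6 HD libraries, and the genotypes overlap. In these IPs 0 of 84 members were called (all genes 2.07%), 6 had an unadjusted p under 0.05, and DESeq2 called 0, with a median of +0.22 against −0.01 over all genes. The granule cell markers (5 genes) summed to 5648 to 8206 CPM in control and 3808 to 5791 CPM in HD libraries of these IPs, with 2 of the 5 genes called lower, and the striatal projection neuron markers (5 genes) to 73.6 to 109 and 50.5 to 68.6 CPM, with 1 called lower. The part of cell composition in the members’ median was not tested. By role the medians were +0.23 for the small subunit, +0.21 for the large subunit and +0.22 for the stalk. Rpsa, a small-subunit protein also known as a laminin receptor, gave 248, 204, 294, 261 and 254 CPM in control and 271 (lowest), 322 (median) and 444 (highest) CPM in HD libraries. All 6 HD libraries lay above the control median, and the groups overlap. It had the lowest p (log2 fold change +0.45 ± 0.15 (SE), adjusted p = 0.155). Over all genes, the share of calls that were higher went from 44.1% to 56.6% with library totals, which called 0 members too.

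The differences between these HD effects were tested as interactions. Between cerebellar vGluT2 and cerebellar Gad2 IPs, 0 of 85 members were called (all genes 0.100%), 0 had an unadjusted p under 0.05, and DESeq2 called 0, and the median difference was +0.06. Between cerebral vGluT2 and Gad2 IPs, 0 of 85 members were called (all genes 0%), 0 had an unadjusted p under 0.05, and DESeq2 called 0, and the median difference was +0.01. The members with the lowest p were Rps4x, the X-linked small-subunit gene, in the cerebellum (+0.35 ± 0.20, adjusted p = 0.761) and Rpl3l in the cerebrum (−1.06 ± 0.75, adjusted p = 1). Between cerebellar and cerebral Gad2 IPs, 0 of 85 members were called (all genes 0%), 0 had an unadjusted p under 0.05, and DESeq2 called 0, and the median difference was +0.03. Between cerebellar and cerebral vGluT2 IPs, 0 of 84 members were called (all genes 0.323%), 1 had an unadjusted p under 0.05, and DESeq2 called 0, and the median difference was +0.11. Rps27rt (+1.03 ± 0.64, adjusted p = 0.835) and Rps4x (+0.46 ± 0.20, adjusted p = 0.592) had the lowest p in these. The 2 interactions between regions of a line share mice.

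For the Rpl22 pair no HD effect passed in any group, by edgeR or by DESeq2. Rpl22 had log2 fold changes of +0.23 in cerebellar vGluT2, +0.10 in cerebellar Gad2, +0.13 in cerebral vGluT2, +0.25 in cerebral Gad2, +0.42 in SST and +0.10 in PV IPs, +0.17 in cerebral and +0.31 in cerebellar total RNA. Rpl22l1 had −0.11 in cerebellar vGluT2, −0.01 in cerebellar Gad2, +0.08 in cerebral vGluT2, +0.09 in cerebral Gad2, +0.20 in SST and +0.02 in PV IPs, +0.16 in cerebral and +0.36 in cerebellar total RNA. The lowest adjusted p among these 16 tests was 0.125.

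In cerebral total RNA, with Cre line in the model, the summed share was 1.76% (lowest), 2.25% (median) and 3.57% (highest) in 13 control and 1.76% (lowest), 2.58% (median) and 4.21% (highest) in 12 HD inputs, and the genotypes overlap. Here 0 of 85 members were called (all genes 0.638%), 6 had an unadjusted p under 0.05, and DESeq2 called 0, with a median of +0.09. Rps4x gave 227 to 404 CPM (median 268) in control and 243 to 492 CPM (median 297) in HD inputs. In 9 of 12 HD inputs it lay above the control median. It had the lowest p (log2 fold change +0.24 ± 0.09 (SE), adjusted p = 0.450), and pseudogene reads limit it. The fit did not use replicate numbers. Correlations of same-numbered inputs of the Gad2 line were +0.60 to +0.97 in 3 pairs. In each of these pairs the summed share was higher in HD (1.763% against 1.758%, 2.345% against 2.14% and 3.01% against 2.922%). Same-numbered inputs of the other lines did not all go this way. HD against control gave 1.926% against 2.442%, 3.011% against 2.897% and 1.988% against 1.998% in the vGluT2 line. The PV line gave 3.082% against 2.412%, 2.662% against 2.244% and 3.034% against 3.439%. The SST line gave 4.212% against 3.566%, 2.305% against 2.246% and 2.487% against 2.213%. Whether the numbers pair these inputs is not known.

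Cerebellar total RNA was the comparison in which ribosomal protein mRNAs were called higher in HD mice. In the vGluT2 line the summed share was 1.72%, 1.66%, 2.17% and 1.68% in the 4 control and 2.22%, 3.04%, 3.52% and 2.53% in the 4 HD inputs, and in the Gad2 line 2.71%, 1.62% and 2.10% in the 3 control and 2.40%, 3.08% and 1.81% in the 3 HD inputs. Every HD input of the vGluT2 line lay above every control input of that line, while in the Gad2 line the genotypes overlap. With line in the model 47 of 85 members were called, all higher (all genes called higher 11.6%, in either direction 23.6%), with a median log2 fold change of +0.51 against −0.01 over all genes. By role these were 19 of 32 small-subunit, 24 of 42 large-subunit and 3 of 3 stalk genes and 1 of 5 tested copies, and neither gene of the Rpl22 pair. DESeq2 called 55 members, all higher, and of 14477 genes it called 2196 higher and 2781 lower.

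In the stalk, Rplp0, the protein that anchors it, gave 133, 136, 167 and 123 CPM in control and 375, 358, 344 and 294 CPM in HD inputs of the vGluT2 line, and 214, 141 and 193 and 211, 293 and 146 CPM in the Gad2 line. The HD inputs of the vGluT2 line lie above its controls, and those of the Gad2 line overlap with theirs. Rplp0 had a log2 fold difference of +0.77 ± 0.18 (SE; adjusted p = 0.0281), with 7 of 7 HD inputs above the median of the controls. Rplp1, a stalk protein that binds elongation factors, gave 329, 366, 410.4 and 346 CPM in control and 768, 948, 927 and 747 CPM in HD inputs of the vGluT2 line, and 544, 383 and 515 and 586, 792 and 364 CPM in the Gad2 line. The pattern of the lines is like that of Rplp0. Rplp1 had a log2 fold difference of +0.74 ± 0.17 (SE; adjusted p = 0.0281), with 6 of 7 HD inputs above the control median, and Rplp2 had +0.70 ± 0.20, adjusted p = 0.0326.

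In the large subunit, Rpl15, a protein of its core, gave 182, 159, 149 and 174 CPM in control and 269.7, 314, 297 and 291 CPM in HD inputs of the vGluT2 line, and 181, 169 and 194 and 225, 232 and 198 CPM in the Gad2 line. The genotypes are apart in both lines. Over both lines it was the 1 member whose 7 HD inputs all lay above all 7 controls (log2 fold change +0.51 ± 0.10 (SE), adjusted p = 0.0157). The share of all genes with genotypes apart in this way is not given, so this cannot be read against all genes. Rpl39, of the exit tunnel, averaged 124 ± 29.9 CPM in control and 222 ± 58.7 in HD inputs (SD, n = 7 and 7), with 7 of 7 HD inputs above the control median and a log2 fold change of +0.74 ± 0.17, adjusted p = 0.0285.

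In the small subunit, Rps3, at the mRNA entry, gave 326, 286, 359.6 and 281 CPM in control and 655, 788, 779 and 674 CPM in HD inputs of the vGluT2 line, and 472, 320.4 and 409 and 486, 616 and 351 CPM in the Gad2 line. The genotypes are apart in the vGluT2 line and overlap in the Gad2 line. Rps3 had a log2 fold difference of +0.74 ± 0.15 (SE; adjusted p = 0.0227), with 7 of 7 HD inputs above the control median. Rps14, near the mRNA exit, gave 263, 233, 269 and 216 CPM in control and 862, 673, 672 and 532 CPM in HD inputs of the vGluT2 line, and 388, 244 and 324 and 386, 506 and 259 CPM in the Gad2 line. The genotypes are apart in the vGluT2 line and overlap in the Gad2 line. It had the largest log2 fold change of the called members (log2 fold change +0.90 ± 0.20 (SE), adjusted p = 0.0281), with 6 of 7 above. Rpsa averaged 418 ± 92.2 CPM in control and 755 ± 221 in HD inputs (+0.76 ± 0.17, adjusted p = 0.0283, 7 of 7 above). Rps10, of the head of the subunit, had +0.71 ± 0.18, adjusted p = 0.0288 (6 of 7 above) and Rps15a +0.45 ± 0.11, adjusted p = 0.0288 (7 of 7 above).

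The number of members called depended on the vGluT2 line and on single libraries, while the members’ median lay between +0.43 and +0.61 whichever library was left out. The vGluT2 line alone had 64 members called, 47 of them shared with the joint fit, and a median of +0.75. The Gad2 line alone had 0, with a median of +0.18. Shares of all genes called are not given for the fits of a single line or with a library left out. Their counts can therefore not be read against all genes. The difference between the lines was tested as an interaction chosen after the data were seen. DESeq2 called 10 of 85 members there, all higher, and of 14477 genes it called 559 higher and 1284 lower. Members with an unadjusted p under 0.05 by edgeR numbered 25, and the share of all genes at that threshold is not given. By edgeR 0 of 85 members were called at the adjusted threshold (all genes 1.36%), and the median difference was +0.55. Its lowest p was that of Rps14 (+1.08 ± 0.28, adjusted p = 0.0601); without HD replicate 2 of the Gad2 line 25 members were called, without control replicate 2 of that line 16 and without HD replicate 1 of the vGluT2 line 1. In the joint fit the 47 fell to 2 without control replicate 2 of the Gad2 line, to 1 without HD replicate 2 of that line, to 1, 0, 1 and 1 without control replicates 1, 2, 3 and 4 of the vGluT2 line, and to 1 without any of HD replicates 2, 3 and 4 of the vGluT2 line. In these fits with 0 to 2 calls the members’ median was +0.43 to +0.54, against +0.51 with all libraries. The calls became 66 without HD replicate 3 of the Gad2 line. With library totals in place of TMM 24 were called, and the share of all calls that were higher went from 49.3% to 21.2%. Of 14477 genes library totals called 598 higher and 2224 lower.

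Other features of the vGluT2 line’s cerebellar inputs also differed between the genotypes without overlap, the Purkinje cell markers lower in HD and 3 lists higher. The Purkinje cell markers (4 genes, Pcp2, Calb1, Car8 and the most abundant, Itpr1) summed to 4060, 4462, 4682 and 4661 CPM in control and 2851, 2676, 2486 and 2816 in HD inputs of this line, and to 4159, 4497 and 3738 and 2935, 2847 and 3786 in the Gad2 line. The microglia markers (6 genes) summed to 127, 119, 133 and 137 and 210.4, 213, 225 and 211 CPM, and in the Gad2 line to 134, 133 and 159.5 and 157, 161 and 136. The striatal projection neuron markers (5 genes, led by Ppp1r1b) summed to 307, 301, 364 and 297 and 464, 431, 484 and 403 CPM, and the PV neuron markers (4 genes, led by Pvalb) to 1449, 1384, 1808 and 1471 and 1973, 2201, 2677 and 2242. In the cerebellum, which holds no striatal cells, the leading genes of these 2 lists were high in Gad2 IPs, rich in Purkinje cell mRNA, with means of 401 CPM of Ppp1r1b and 3706 of Pvalb against 40.9 and 119 in vGluT2 IPs, so the names of these lists do not give the cells they come from here. In the Gad2 line the striatal and PV lists overlap between genotypes. There the GABAergic neuron markers (751, 794 and 805 against 621, 666 and 708 CPM) and the oligodendrocyte markers (4149, 3985 and 4799 against 3221, 3481 and 3088 CPM) were lower in HD inputs without overlap. The astrocyte markers summed to 3224, 2573, 2728 and 2958 and 2636, 1830, 1780 and 2005 CPM in the vGluT2 line, the granule cell markers to 3711, 3044, 2699 and 2703 and 1928, 2844, 2132 and 3225, and the endothelial markers to 60.2, 93.9, 111 and 84.2 and 104, 121, 129.5 and 94.6, with overlap. Over both lines, genes outside the list under 1 kb had a median log2 fold change of +0.26, those of 1 to 2 kb +0.23, those of 2 to 4 kb +0.08 and those of 4 kb or more −0.29. The mitochondrially encoded share was 9.21%, 7.15%, 4.13% and 8.72% in control and 4.71%, 7.38%, 3.12% and 5.97% in HD inputs of the vGluT2 line and 3.61%, 8.91% and 5.10% and 5.29%, 2.54% and 7.80% in the Gad2 line, in the order of the summed shares above. The genotypes overlap in it; the input with its lowest value had the highest ribosomal protein share in each genotype of either line. No marker of these lists was at 0 in a group, and the part of cell composition, mitochondrial share and transcript length in the members’ rise was not tested.

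Whether the HD effect differed between cerebellar and cerebral total RNA was also tested after the data were seen, in the Gad2 and vGluT2 lines. In this interaction DESeq2 called 16 of 85 members, all higher, and of 14885 genes it called 1211 higher and 1068 lower. By edgeR 0 of 85 members were called at the adjusted threshold (all genes 0.222%), and the median difference was +0.51. Members with an unadjusted p under 0.05 numbered 45, and the share of all genes at that threshold is not given. Rpl15 had the lowest p (+0.48 ± 0.12, adjusted p = 0.0873), and Rplp0 and Rplp1 had +0.86 and +0.87. Leaving out HD replicate 3 of the cerebellar Gad2 inputs gave 35 called members, control replicate 3 of that group 5, control replicate 1 of the cerebral Gad2 inputs 33 and HD replicate 3 of that group 32. Shares of all genes are not given for these fits. A difference between the regions was thus not shown by edgeR’s test with all libraries.

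**Figure D3:**
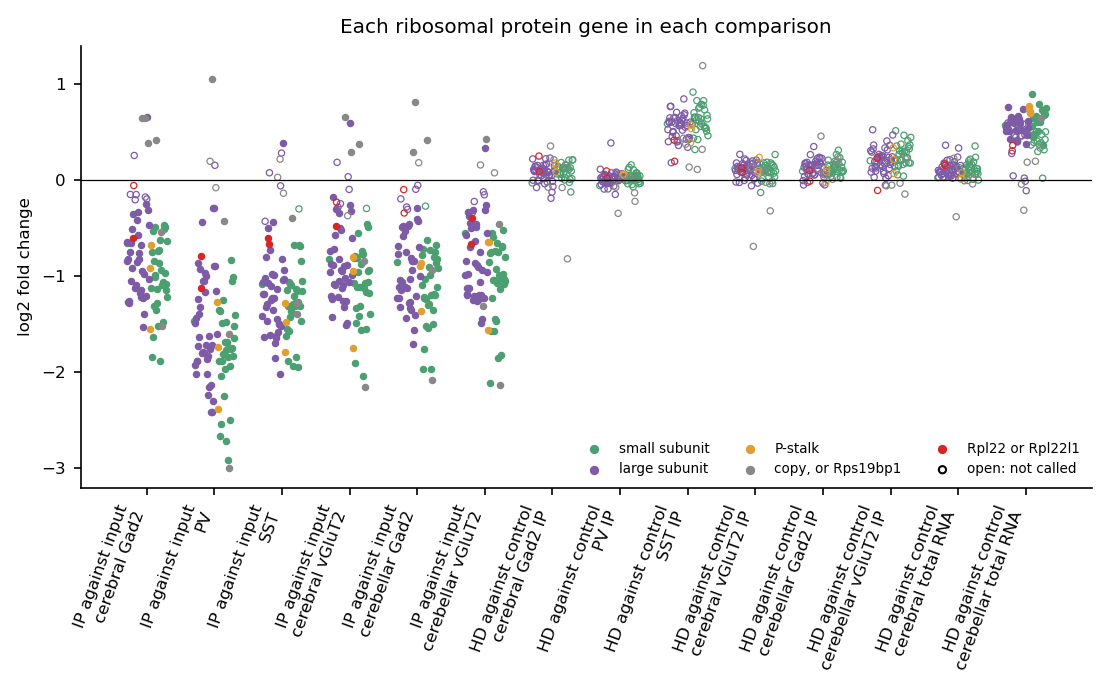
Log2 fold change of each tested ribosomal protein gene (vertical axis) in the comparisons of IP with input and of HD with control; each point is a gene, coloured by its role, and filled where the adjusted p is at most 0.05. Filled points of the HD comparisons occur in cerebellar total RNA, where the median is +0.51, and the IP comparisons have medians from −1.68 (PV) to −0.84 (cerebral Gad2).

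Other genes of translation did not all follow the ribosomal proteins in the IPs. Of all genes, 34.5%, 37.3%, 33.9%, 34.8%, 34.7% and 32.3% were called higher and 33.5%, 38.9%, 35.7%, 33.6%, 32.6% and 35.9% lower in cerebral Gad2, PV, SST, cerebral vGluT2, cerebellar Gad2 and cerebellar vGluT2, and the counts of lists in this and the next paragraph are to be read beside these shares. Rack1, a scaffold on the small subunit, lies outside the name rule; it was lower than in inputs in each cell type, from −0.96 in cerebral vGluT2 to −0.62 in SST. Of the 7 elongation factors, 6 were lower in cerebral Gad2 and in PV, 7 in SST, 5 in cerebral vGluT2 and 4 in each cerebellar comparison, while 1 was higher in cerebral vGluT2 and 1 in cerebellar vGluT2. Eef1a1, which delivers tRNA, had −1.62 in PV, and Eef1a2, its neuronal paralog, −0.17, which did not pass. Initiation factors, counted as higher and lower, numbered 15 and 4 of 31 in cerebral Gad2, 14 and 11 of 31 in PV, 11 and 11 of 31 in SST, 21 and 6 of 31, 12 and 6 of 31 and 17 and 2 of 31 in the cerebral vGluT2, cerebellar Gad2 and cerebellar vGluT2 types, with Eif3a highest in PV (+3.05) and Eif3f lowest (−0.84).

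Ribosome assembly factors had counts of higher and lower of 23 and 3 of 28, 16 and 8 of 28, 13 and 9 of 28, 20 and 2 of 28, 19 and 0 of 28 and 20 and 1 of 28 in the same order of cell types, against 33.9% higher and 35.7% lower of all genes in SST, where the counts of the list lay closest together. Ncl, the nucleolar protein nucleolin, led them with +1.77 in cerebral Gad2 and +1.97 in PV. Mitochondrial ribosomal proteins, translated by the same cytosolic ribosomes, were more often higher than lower in cerebral Gad2 (53 and 0 of 78, all genes 34.5% and 33.5%) and cerebellar Gad2 (43 and 0 of 78, all genes 34.7% and 32.6%), split in PV (25 and 28 of 78, all genes 37.3% and 38.9%) and more often lower in SST (11 and 47 of 78, all genes 33.9% and 35.7%); cerebral and cerebellar vGluT2 had 35 and 2 of 78 and 27 and 8 of 78, where the all-gene shares were 34.8% and 33.6% and 32.3% and 35.9%. Nuclear subunits of oxidative phosphorylation had 43 and 7 of 79, 29 and 29 of 79, 6 and 58 of 79, 18 and 18 of 79, 43 and 6 of 78 and 21 and 12 of 78. Among 11 regulators of TOP mRNA translation the counts were 5 and 5 of 11, 9 and 2 of 11, 6 and 1 of 11, 5 and 4 of 11, 5 and 2 of 11 and 4 and 3 of 11, with Eif4ebp1, which holds back cap-dependent initiation, at −2.56 in PV.

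In HD cerebellar total RNA, where 11.6% of all genes were called higher and 23.6% in either direction, the elongation factors had 5 of 7 higher and 0 lower, led by Eef1a2 (+0.75 ± 0.17, adjusted p = 0.0281), and Rack1 (+0.81 ± 0.18, adjusted p = 0.0276) was higher. Nuclear oxidative phosphorylation subunits had 29 of 78 higher and 0 lower, led by Cox4i1 (+0.81 ± 0.17, adjusted p = 0.0227), and mitochondrial ribosomal proteins 10 of 78 higher and 2 lower, where the number higher was near the share of all genes. Initiation factors had 9 of 31 higher and 4 lower, from Eif3a (−1.12) to Eif3d (+0.64), assembly factors 3 of 28 higher and 4 lower, the number higher being below the share of all genes, with Fbl, the rRNA methyltransferase, highest (+0.80), and TOP regulators 2 of 11 higher and 3 lower, with Rps6kb1, the S6 kinase, lowest (−1.18). Htt was called lower in cerebral total RNA (−0.50 ± 0.08, adjusted p = 0.00191) and in cerebellar total RNA (−0.49 ± 0.13, adjusted p = 0.0311).

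What many members share beyond their names is the start of the mRNA. RefSeq promoter windows of GRCm38.p6, 250 bases before to 50 after each start, were present for 67 of the 87 genes (79 windows) and absent for 20. A TOP-like motif was searched as a C followed by 4 bases that are each C or T, on the strand of the gene. It began exactly at the RefSeq start in 15 of 67 members (22.4%) and in 813 of 27025 genes with a window (3.0%). Within 5 bases either side it began in 31 members (46.3%) and in 5718 genes (21.2%), and on the other strand in 10 members (14.9%) and 6582 genes (24.4%). A match is a description of letters and not of translation. The 31 members with the motif near the start and the 34 tested members without it had median log2 fold changes of −1.72 and −1.46 in PV IPs against input, −0.84 and −0.83 in cerebral Gad2, and +0.58 and +0.47 in HD cerebellar total RNA. In IPs against input of cerebral vGluT2 neurons the medians with and without it were −0.88 and −0.91, in those of cerebellar vGluT2 neurons −0.86 and −0.90, and for the HD effect in cerebellar vGluT2 IPs +0.18 and +0.24, with 33 in place of 34 members without the motif, so that the members with it were not further from 0 in every comparison.

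The start sequences of the Rpl22 pair, of Rps27 and its copies, and of the copies Rpl36al and Rpl7l1 are shown as examples of paralogs; each runs 5′ to 3′ from 10 bases before the RefSeq start to 20 bases from it, with coordinates of GRCm38.p6, and capitals mark a motif that begins within 5 bases of the start and the pyrimidines that continue it.
Rpl22l1 (chr3:28805498-28805527, + strand): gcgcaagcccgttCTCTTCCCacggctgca
Rps27 (chr3:90213629-90213658, - strand): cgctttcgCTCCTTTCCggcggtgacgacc
Rps27rt (chr9:114982720-114982749, - strand): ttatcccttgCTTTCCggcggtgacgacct
Rps27l (chr9:66946076-66946105, + strand): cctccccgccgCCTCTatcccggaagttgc
Rpl22 (chr4:152324426-152324455, + strand): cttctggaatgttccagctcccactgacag
Rpl36al (chr12:69184048-69184077, - strand): ccgtcgctcaggttcagttccgacttccgc
Rpl7l1 (chr17:46782637-46782666, - strand): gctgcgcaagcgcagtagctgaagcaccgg
The first RefSeq entries of Rpl22, Rpl36al and Rpl7l1 have no match that begins within 5 bases either side of the start. The Rpl22 entry shown lies upstream of the annotated gene, which starts at 152325742. A second Rpl22 entry, not shown, covers that position (chr4:152325716-152325745) and has no match either. Rps27l also has a second entry, not shown (chr9:66946403-66946432), without a match.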

How the data were processed

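The deposited table holds 1 value per gene and library: estimated counts (expected counts) that the authors made with STAR and Salmon against GRCm38.p6 with spike-in and tag sequences added. Of the values 8.57% are not whole; all were rounded, and the 92 spike-ins were left out. Of 55401 mouse genes 55141 matched GENCODE M21, which gave gene types and transcript lengths. Counts were tested with edgeR 4.0.16 (quasi-likelihood F test, robust, TMM within the libraries fitted, R 4.3.3, limma 3.58.1) for the protein-coding genes whose mean count passed 10, with Benjamini-Hochberg adjustment and a threshold of 0.05. Fits were tested on simulated data. Alternatives were DESeq2 1.42.0, DESeq2 size factors, library totals, other filters, all gene types, replicate or mouse blocks, control mice only, inputs of the same line, each Cre line alone and each library left out. Tables and figures used Python 3.11.15, pandas 2.3.3, numpy 2.4.6 and matplotlib 3.10.9. Named were Rpl22 and Rpl22l1, the stalk genes, the copies, Rack1 and Htt, the called members with the 3 highest and 3 lowest log2 fold changes of a comparison (for HD effects up to 10 by adjusted p, or the lowest p where none was called), the 5 highest and lowest per length, and the extremes of the other lists; the start sequences shown were chosen after the values were seen. Some genes that this rule names are not reported here. The members and lists were chosen with earlier results of these data known: Rack1, elongation, initiation and ribosome assembly factors, regulators of TOP mRNA translation, mitochondrial ribosomal proteins, oxidative phosphorylation subunits and cell type markers. IP and input libraries and the regions share mice by their identifiers; the median correlation of the deviations of a mouse’s IP and input ran from −0.17 (cerebral vGluT2) to +0.38 (cerebral Gad2).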

Additional observations from a re-analysis of the deposited data

Results flagged for a closer look

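A library was marked where its gap to the nearest library of its group, divided by the range of the group, passed Dixon’s 95% critical value; chance flags about 1 in 20 groups, and 11 of 105 group tests were marked. Control replicate 1 of the cerebral vGluT2 IPs was the highest of 6 in the summed share (2.13%, next 1.31%), Rpl22 (104 CPM, next 71.1), Rplp0 (157 CPM, next 104) and Rplp2 (236 CPM, next 148). HD replicate 4 of the SST IPs was the highest of 4 in Rplp0 (142 CPM, next 75.8) and Rplp2 (205 CPM, next 88.6). HD replicate 2 of the cerebellar vGluT2 IPs was the highest of 6 in Rpl22l1 (104 CPM, next 67.3) and Rplp1 (374 CPM, next 205). Control replicate 3 of the cerebellar vGluT2 inputs was the highest of 4 in the summed share (2.17%, next 1.72%) and Rplp2 (196 CPM, next 139), and control replicate 1 of the SST inputs in the summed share (3.57%, next 2.25%). No explanation of these values was tested.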

How the results depend on the processing

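Results for whole comparisons kept their count of called members within 1.5 times of the main count in 205 of 217 fits under other settings and in 439 of 471 fits without 1 library, and no result reversed. For named genes under other settings 1363 values were the same, 83 lost and 11 gained a call, and 17 moved; without 1 library the numbers were 2800, 181, 14 and 4. DESeq2 called 16 members in the interaction between regions in total RNA and 10 in the interaction between lines in cerebellar total RNA, where edgeR called 0. Over all genes DESeq2 called 1211 higher and 1068 lower of 14885 in the first and 559 higher and 1284 lower of 14477 in the second. For the HD effect in cerebellar total RNA, with 47 called and a median of +0.51, library totals gave 24 (median +0.44), the Gad2 line alone 0 (median +0.18) and replicate number within line as a replicate block 0 (median +0.48). Those HD and control inputs come from different mice, and the correlation of same-numbered inputs did not pass 0.1 in every pair (−0.87 to −0.01, 0 of 3 pairs above, in the Gad2 line and −0.22 to +0.45, 2 of 4 above, in the vGluT2 line), so whether the numbers pair these inputs is not known. In cerebral inputs the 3 pairs of the Gad2 line had +0.60 to +0.97, and in each other line 1 or 2 of 3 pairs passed 0.1. Mouse as a replicate block with only the mice that gave both preparations, 2 changes at once, gave 48 called members in place of 78 for cerebral Gad2 IPs against input and changed no other count by over 1.5 times. For cerebral vGluT2 against Gad2 IPs, with 2 called, library totals gave 4 and control mice only 0; for cerebellar vGluT2 against Gad2 IPs, with 16, no filter on low counts gave 25 and control mice only 10; for the regions in total RNA, with 9, control mice only gave 22. The level of Rpl22 per kilobase was 123 CPM by the median transcript and 34.6 by the longest. Without 1 library the counts ran from 0 to 35 in the interaction between regions in total RNA, from 0 to 25 in that between lines, from 0 to 66 for the HD effect in cerebellar total RNA, from 0 to 5 for cerebral vGluT2 against Gad2 IPs, from 32 to 65 for SST against Gad2 IPs and from 12 to 41 for cerebellar vGluT2 against Gad2 IPs. The cause was not tested in any of these. Shares of all genes are not given for fits with 1 library left out, with blocks, with other filters or with control mice only. Limits are the 3 or 4 inputs per line and genotype in the cerebellum, bulk libraries, not knowing whether counts of Rpl22 hold reads of the tagged allele, pseudogene reads, and low counts of Rpl3l, Rps27rt and Rpl39l.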
